A study of Mus musculus with 4 samples.

Results

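The Wnt receptor and Tcf/Lef genes described here are Fzd4, Fzd6, Fzd7, Lrp5, Lrp6, Ctnnb1, Axin2, Tcf7l1, Tcf7l2 and Lef1. They were taken by symbol from the array annotation, as 10 of 18194 genes, together with all of their 24 probe sets. Mouse ES cells carrying the Venus reporter in 1 Runx1 allele, driven by the proximal Runx1 promoter (Runx1(Venus/+), from CCE ES cells), were differentiated on OP9 stromal cells without other treatment and sorted on day 6, so all groups share the heterozygous Runx1 background and the feeder layer. Population 1 was Runx1-/VE-cadherin+/Flk1+, population 2 Runx1+/VE-cadherin+/CD41-, population 3 Runx1+/VE-cadherin+/CD41+ and population 4 Runx1+/VE-cadherin-/CD41+. RNA of each population was hybridised to 1 Affymetrix array in the data used here, which therefore give no replicate check, no test and no error between populations. A replicate set that the methods describe on Agilent arrays was not analysed here. All values come from a single ES cell line, and Runx1+ and Runx1- refer to the reporter.

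Wnt ligands bind frizzled receptors (Fzd) and the co-receptors Lrp5 and Lrp6 at the cell surface. In the canonical branch this stops the destruction complex, built on axin and Apc, from marking β-catenin (Ctnnb1) for degradation, and β-catenin enters the nucleus as the coactivator of Tcf/Lef factors. In endothelium, frizzled 4 with Lrp5 is known as the receptor of norrin in the retina, and β-catenin also joins VE-cadherin to the actin skeleton at adherens junctions. Tcf/Lef factors repress their targets in the absence of β-catenin, with Tcf7l1 known mainly as a repressor and Lef1 mainly as an activator.

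The values are probe set signals, an intensity on a linear scale in which different probe sets cannot be set against each other. A gene was read by its brightest probe set, the one with the highest mean log2 signal. Signals below 100, the expression level used in the study's methods, were raised to 100 before a ratio, so that the fold is then written as at least so much, and none is given where both lie at or below 100. The Runx1 signal was 55.3, 358, 1297 and 2440.2 in populations 1 to 4, and that of VE-cadherin (Cdh5) 5683, 3946, 4849 and 40.9, both following the gates. CD41 (Itga2b) had 667, 1135, 2418 and 1609.5, well above 100 in the CD41- population 2 and lower in population 4 than in population 3. Of 10 endothelial marker genes, 10, 10, 10 and 6 exceeded 100 in populations 1 to 4, and of 9 erythroid marker genes 0, 1, 4 and 8. Of 7 markers of undifferentiated ES cells only Klf4 exceeded 100 in any population. As sorted cells were measured in bulk, fewer cells of a type and less RNA per cell cannot be told apart in any value given here.

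Of the 10 genes, 8 exceeded a signal of 100 in at least 1 population, 3 of them (Fzd7, Lrp6 and Ctnnb1) in all 4. Lrp5 and Axin2 did not exceed it anywhere, and Fzd6 did so in population 1 only. The number above 100 was 8 in population 1, 7 in population 2, 6 in population 3 and 3 in population 4. Among the 8, the lowest signal was in population 4 for 7 genes, while 27.6% of all 9468 genes above 100 were lowest there. Because a gene enters through the population in which it is high, these counts describe the genes and do not test them.

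**Figure D1:**
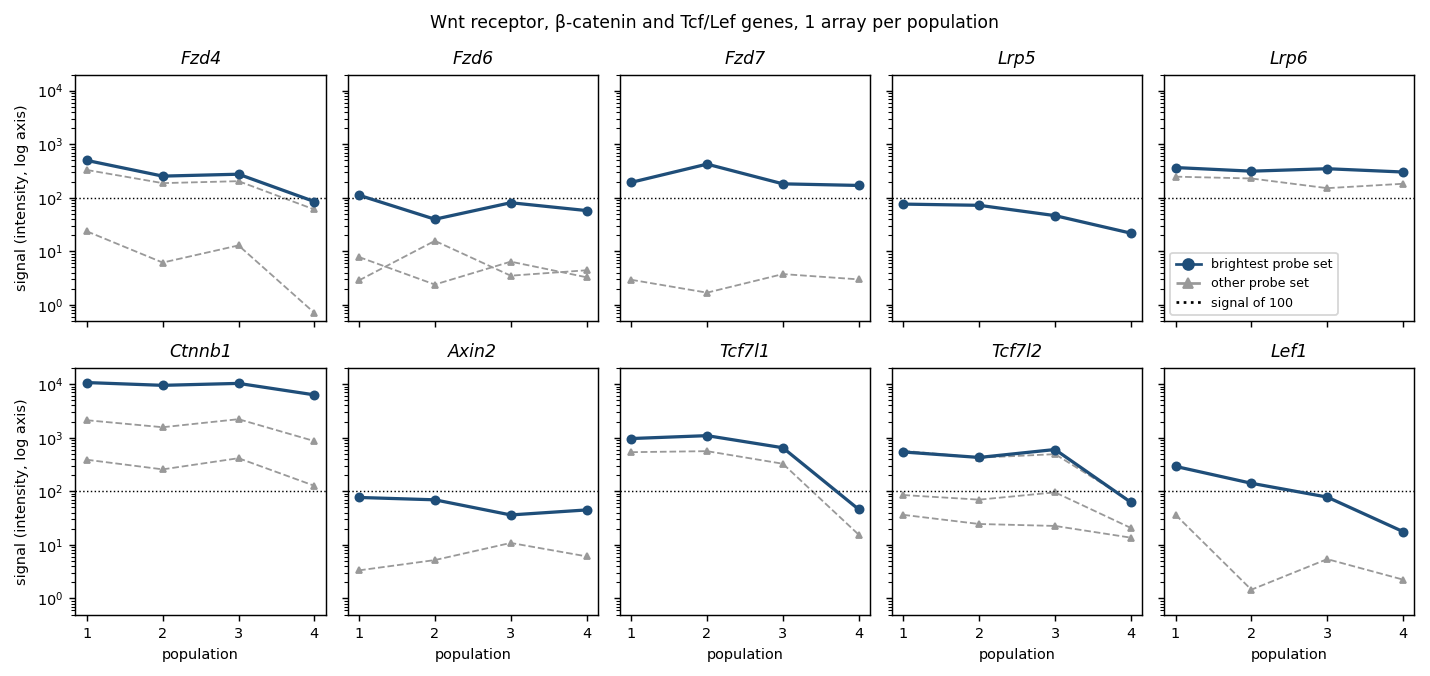
Every probe set of the 10 genes, as signal (intensity, log axis) over populations 1 to 4, each a single array without error bars; filled circles mark the brightest probe set, grey triangles the others and the dotted line a signal of 100. By the brightest probe set, Fzd4, Tcf7l1 and Tcf7l2 drop below 100 in population 4 only, and Fzd7 peaks at 425 in population 2. Lef1 is lower at every step by that probe set, with populations 3 and 4 below 100.

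Frizzled genes encode the receptors that bind Wnt ligands. Fzd4, which also binds norrin, had signals of 498, 254, 275 and 84.9 in populations 1 to 4. It was highest in population 1, lower and close together in populations 2 and 3, and below 100 in population 4. Population 4 was at least 4.98-fold below population 1 and at least 2.75-fold below population 3. A second probe set gave the same order, with 330, 188, 204 and 60.4, and the third stayed below 100 in all populations.

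Fzd7, a frizzled receptor known from ES cells and early embryos, had a different profile, with 194, 425, 182 and 169.9. Its signal in population 2 stood apart, and the other populations lay close together. It was 2.19-fold higher in population 2 than in population 1 and 2.33-fold lower in population 3 than in population 2. This rests on 1 probe set, as the other one had signals of 1.69 to 3.76. Fzd6, known for its part in planar cell polarity, had 112, 39.7, 80.8 and 57.7, and its other probe sets stayed below 100 in all populations. No fold between the populations other than 1 is given for it, since both sides lie below 100.

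The co-receptor genes differed in detection. Lrp6 had signals of 367, 314, 349 and 303 in populations 1 to 4, which spans 1.21-fold from the lowest to the highest population. A second probe set gave 248, 229, 151 and 183, so the order of populations 3 and 4 depended on the probe set. Lrp5, the partner of frizzled 4 in norrin signalling, had 76.2, 72.3, 46.4 and 21.8 by its only probe set, all below 100.

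β-catenin, the coactivator and cadherin partner, was read by 3 probe sets. The brightest had 10723, 9517, 10347 and 6319 in populations 1 to 4, the second 2124, 1572, 2221 and 866, and the third 388, 257, 415 and 127. All 3 were lowest in population 4, and populations 1 and 3 lay above population 2 in each, with population 1 highest by the brightest and population 3 by the others. Population 4 was 1.70-fold, 2.45-fold and 3.06-fold lower than population 1 by these probe sets. It was 1.64-fold, 2.57-fold and 3.27-fold lower than population 3. Whether Ctnnb1 passed 2-fold thus depended on the probe set.

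Axin2 encodes a scaffold of the destruction complex and is a widely used target of canonical Wnt signalling. Its brighter probe set had 76.8, 69.3, 36.2 and 44.9 in populations 1 to 4 and the other 3.34 to 10.9. Neither exceeded 100, so no difference in Axin2 can be given on these arrays.

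Tcf7l1 had signals of 966, 1094, 650.3 and 46.0 in populations 1 to 4. The 3 VE-cadherin+ populations were all far above population 4, and population 3 lay below populations 1 and 2. Population 4 was at least 9.66-fold below population 1 and at least 6.50-fold below population 3. A second probe set had 538, 562, 327 and 15.5, the same order in every population.

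Tcf7l2 had signals of 542, 429, 603 and 62.3 by its brightest probe set and 572, 424, 494 and 65.5 by the next. Both put population 4 below 100 and population 2 lowest of the VE-cadherin+ populations, while they disagreed on whether population 1 or 3 was highest. Population 4 was at least 5.42-fold lower than population 1 and at least 6.03-fold lower than population 3. The remaining 2 probe sets stayed below 100 in all populations, with 69.8 to 95.5 in the VE-cadherin+ populations against 20.7 in population 4 for the brighter of them.

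Lef1 had signals of 292, 141, 78.0 and 17.7, lower at each step from population 1 to 4. Population 2 was 2.07-fold below population 1, and population 4 at least 2.92-fold below it. Populations 3 and 4 both lay below 100. The other probe set was below 100 in all populations, with 36.4 in population 1 and 1.46 to 5.42 in the others.

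Tcf/Lef factors bind DNA through a core of CTTTG, extended to CTTTGAT in strong sites, and Tcf/Lef genes can themselves carry such sites. Promoter sequences from RefSeq (GRCm38.p6, 250 bases before to 50 after a gene's start) were matched for 7 of the 10 genes, 12 promoters in all. The letters CTTTGAT, and their reverse complement, were found in 0 of these 12 and in 3.73% of 32851 promoters. The shorter CTTTG, which CTTTGAT contains, occurred in promoters of 4 genes (Fzd7, Tcf7l1, Tcf7l2 and Lef1). It is common, with 57.4% of all 27025 genes, and 53.9% of all promoters, holding it on either strand. The sites of the 3 Tcf/Lef genes that were lowest in population 4 are shown for their flanks, as examples, with the core in capitals (CAAAG is the core on the opposite strand), each on the strand of its gene. They lie at chr6:72789059-72789082 (minus strand) for Tcf7l1, chr19:55741690-55741713 and chr19:55895298-55895321 (plus strand) for 2 promoters of Tcf7l2, and chr3:131110289-131110312 and chr3:131156106-131156129 (plus strand) for 2 of the 8 matches in the 4 promoters of Lef1, some of which overlap.
Tcf7l1: ctgtcaaaaCTTTGtcgccgcagc
Tcf7l2, first promoter: cccggcgccCAAAGgatcattgtt
Tcf7l2, second promoter: aatatcaggCTTTGttcttttgat
Lef1, first site: agtgaatagCTTTGcagcgccggc
Lef1, second site: atacatggtCAAAGgaaaataggt
These matches are letters in a window and no measure of binding.

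Gain of the Runx1 reporter among VE-cadherin+ cells was addressed by population 2 over population 1. By their labels these also differ in other gates, Flk1+ for population 1 and CD41- for population 2, which cannot be told apart from the reporter. Fzd7 was at least 2-fold higher, as were 2.92% of all 9468 genes, and Lef1 at least 2-fold lower, as were 4.19%. Fzd4 was 1.96-fold lower by its brightest probe set and 1.76-fold lower by the next, just short of that limit. Of the other measured members, none passed 2-fold, with log2 ratios between -0.34 (Tcf7l2) and 0.18 (Tcf7l1). Lef1 no longer passed 2-fold with a floor of 200 (log2 ratio -0.55) or with the mean over probe sets (-0.04).

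Gain of CD41 within Runx1+/VE-cadherin+ cells was addressed by population 3 over population 2. Fzd7 was the only member at least 2-fold lower, where 0.253% of all genes were, and 0 members were at least 2-fold higher, against 3.11% of genes. Among all genes, 0.0739% had a lower ratio than Fzd7. The log2 ratio of Tcf7l1 was -0.75, while Tcf7l2 had 0.49. That of Lef1, below 100 in population 3, was -0.50 or lower. Fzd6 lay below 100 in both populations and could not be called. The median over all genes was 0.22, and relative to it Tcf7l1 was at -0.97 and Tcf7l2 at 0.27. Scaled on the hybridisation controls, Fzd7 had a log2 ratio of -0.85, short of 2-fold, with 11.2% of genes higher and 0.0731% lower. After centring on the array median 1.21% were higher and 0.637% lower, and Tcf7l1, at -1.06, also passed 2-fold.

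Loss of VE-cadherin within Runx1+/CD41+ cells was addressed by population 4 over population 3. Here Fzd4, Tcf7l1 and Tcf7l2 were at least 2-fold lower, 3 of the 8 members above 100, against 12.2% of all genes above 100. Among those 8, Fzd6 and Lef1 lay below 100 in both populations and could not be called. Both Tcf7l1 and Tcf7l2 were at least 4-fold lower, against 4.65% of genes. None was at least 2-fold higher, where 7.94% of genes were. Fzd4 did not pass 2-fold with a floor of 200 (log2 ratio -0.46), nor Tcf7l2 with the mean over probe sets (-0.67).

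Between the ends of the series, population 4 over population 1, Fzd4, Tcf7l1, Tcf7l2 and Lef1 were at least 2-fold lower, 4 of the 8 members above 100, and 0 were at least 2-fold higher. Of all genes, 12.9% were at least 2-fold lower and 22.4% at least 2-fold higher, and after centring on the array median 16.0% and 14.4%. The 3 members at least 4-fold lower were Fzd4, Tcf7l1 and Tcf7l2, against 5.67% of all genes. The log2 ratios were -3.27 for Tcf7l1, -2.44 for Tcf7l2, -2.32 for Fzd4 and -1.55 for Lef1, each computed against 100 in population 4. Those of Ctnnb1, Lrp6, Fzd7 and Fzd6 were -0.76, -0.28, -0.19 and -0.16, the last also computed against 100. The median over all genes was 0.36, so that each of the 8 measured members lay below it. With the arrays scaled on the hybridisation controls, Fzd7 and Lrp6 turned to 0.14 and 0.05. The mean over probe sets took Tcf7l2 (-0.81), Fzd4 (-0.65) and Lef1 (-0.04) below 2-fold and Ctnnb1 (-1.22) past it, and a floor of 200 took Lef1 to -0.55. Centring on the array median also took Ctnnb1 past 2-fold (-1.06), which made 5 lower members.

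**Figure D2:**
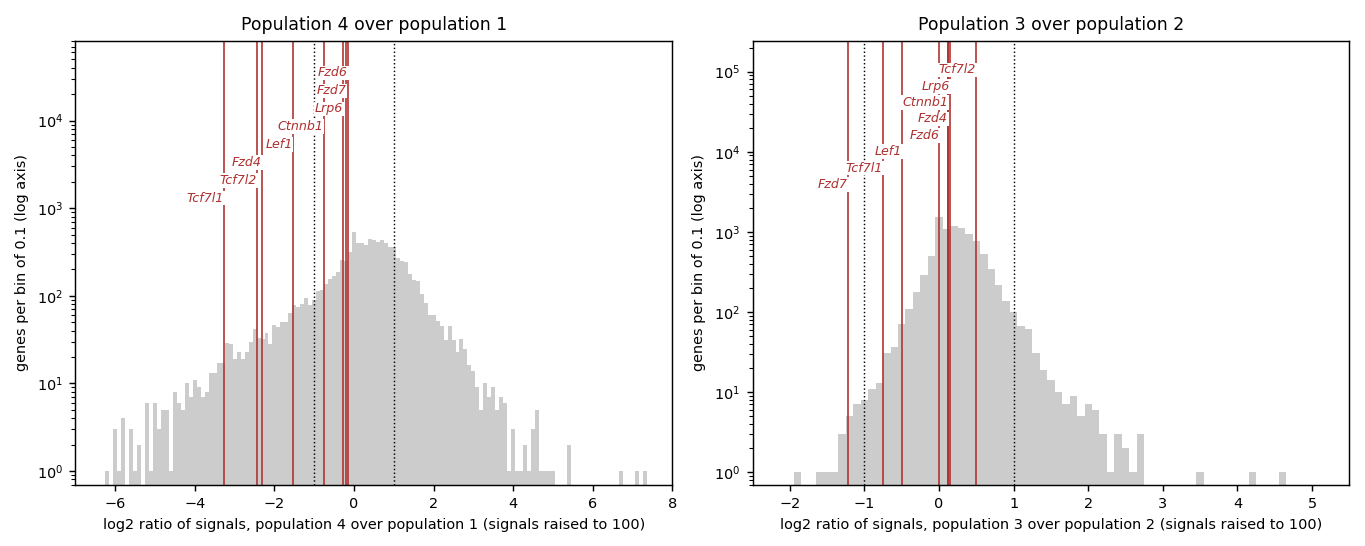
Number of genes (log axis) by log2 ratio of signals raised to 100, over the 9468 genes above 100, for population 4 over population 1 (left) and population 3 over population 2 (right), with members as red lines and 2-fold as dotted lines; a member at 0 on the right (Fzd6) had both signals below 100. On the left Tcf7l1 lies at -3.27, and on the right Fzd7 at -1.22.

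**Figure D3:**
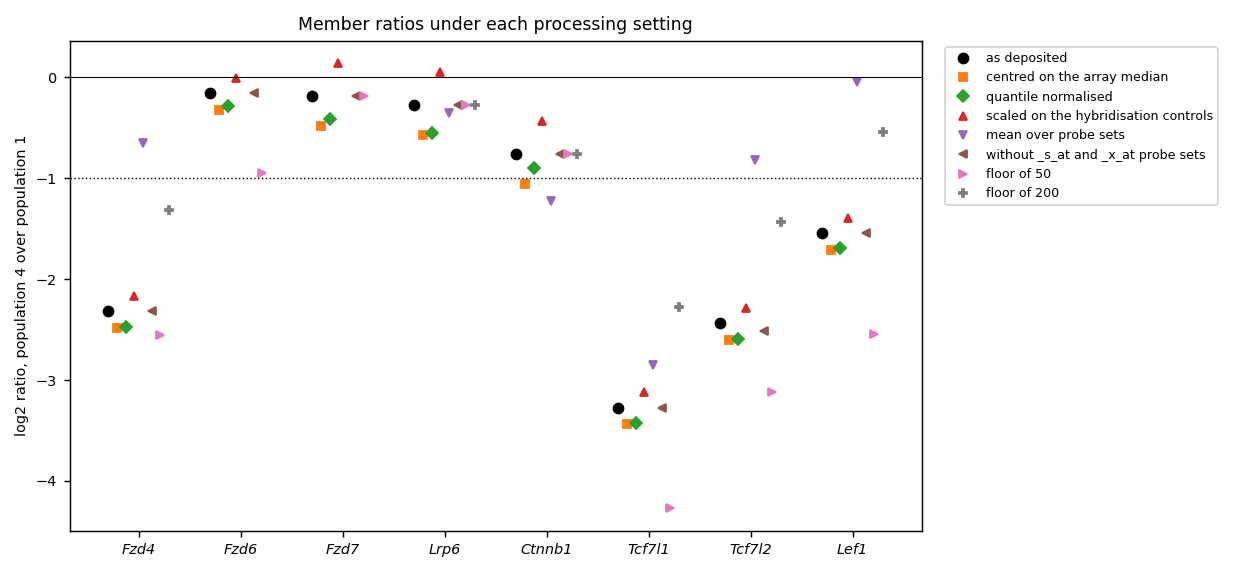
Log2 ratio of population 4 over population 1 for the 8 members above 100, 1 marker per processing setting, with the dotted line at 2-fold; a setting without a ratio has no marker. Tcf7l1 stays between -4.27 and -2.27, while Lef1 reaches -0.04 with the mean over probe sets.

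Different probe sets of a gene gave ratios that differed on the same arrays. Over 6541 pairs of a gene's brightest and another probe set, the log2 ratios of population 4 over population 1 differed by a median of 0.28, and by at most 1.01 in 90% of pairs. For population 3 over population 2 these values were 0.16 and 0.48. They cover probe sets of the same arrays and no difference between samples.

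Dynamic genes were taken here as those with a standard deviation of log2 signals above 1 over the 4 populations. A signal above 100 in at least 1 population was also required. With these limits 1380 of 9468 genes were dynamic. The form follows a filter in the methods that does not state the scale. The methods report far more dynamic genes, so the set used here is not that of the paper. Fzd4, Tcf7l1, Tcf7l2 and Lef1 met the limits used here, 4 of the 8 members above 100 against 14.6% of all genes above 100. Signals below 100 entered as deposited, and with them raised to 100 Lef1 spanned 2.92-fold and Fzd4 4.98-fold. With that floor neither Lef1 nor Fzd4 would meet the limit on the standard deviation. Over 4 populations, which share the arrays and their scaling, the Pearson correlation of log2 signals with Runx1 was below -0.6 for 6 of the 8 measured members and for 15.3% of genes. It was -0.91 for Lef1, -0.85 for Fzd4, -0.70 for Tcf7l1 and -0.61 for Tcf7l2, with n = 4 in each. The others were Ctnnb1 (-0.68) and Lrp6 (-0.67), which spanned only 1.70-fold and 1.21-fold. Of dynamic genes alone, 48.6% were below -0.6, so this is common among genes that vary as the 4 dynamic members do.

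Endothelial markers were, like Fzd4, Tcf7l1, Tcf7l2 and Lef1, lowest in population 4 in sum. Their summed signal was 29270.3, 20059.9, 24026 and 3016 in populations 1 to 4 over 10 genes, with Cdh5, Tie1, Cldn5 and Emcn below 100 in population 4. For 10 stromal genes, the kind of the OP9 layer, the sum was 3851, 2686, 2162 and 1562, with 5, 4, 4 and 4 genes above 100. Of those stromal genes Col1a1, Pdgfra, Lum, Dcn and Thy1 did not exceed 100 in any population. Col1a2 (1988, 1132, 970 and 843), Col3a1, Pdgfrb and Tagln exceeded it in every population, and Postn in population 1 only. The 9 erythroid genes summed to 285, 344, 4685 and 48819.5, highest in population 4. Each sum mainly follows its brightest probe sets and is no measure of the amount of a cell type. The part of any of these cell types in the values of the Wnt receptor and Tcf/Lef genes was not tested.

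Genes with profiles like those of the members were taken by the smallest root mean square difference of log2 signals, raised to 100 and centred on each gene's mean, over the 4 populations and 6053 genes with a signal of at least 400. For Tcf7l1 these were Sec24d, a coat protein gene of endoplasmic reticulum vesicles (difference 0.12), the growth factor gene Hbegf (0.17) and N-cadherin, Cdh2 (0.18). For Tcf7l2 they were Kank2, Mtus1 and Uaca, with differences of 0.05, 0.06 and 0.07. For Fzd4 they were Tgif1, a homeobox repressor gene (0.04), Tmem47 (0.06) and Arhgef15 (0.08), a guanine nucleotide exchange factor gene of endothelium. Differences below 0.3 were found for 27 genes around Tcf7l1, 139 around Fzd4 and 185 around Tcf7l2, so by this measure the profile of Tcf7l1 had fewer close matches. Tcf7l1, Fzd4 and Tcf7l2 all lay below 100 in population 4, where any gene below 100 entered at the same level.

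Other genes of the pathway were read from 9 lists by role, 111 genes in all without the 10 above, of which 108 were matched on the array and 54 exceeded 100 in at least 1 population. Tcf7, the fourth Tcf/Lef gene, was among the 3 not analysed here. Between populations 4 and 1, 12 of the 54 were at least 2-fold lower and 6 at least 2-fold higher, shares of 22.2% and 11.1%, against 12.9% and 22.4% of all genes. Their median log2 ratio was -0.12, against 0.36 for all genes. In population 4 over population 3, 13 were at least 2-fold lower and 3 at least 2-fold higher, against 12.2% and 7.94% of all genes. The lower genes of both comparisons include Cdh5, whose loss the sorting gate itself selects. Among genes of these lists, Wnt4, Wnt11, Wls, Rspo3, Sost, Apc, Gsk3b, Crebbp, Pygo2, Ctnna1 and Ctnnd1 are given as examples chosen after their values were seen.

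**Figure D4:**
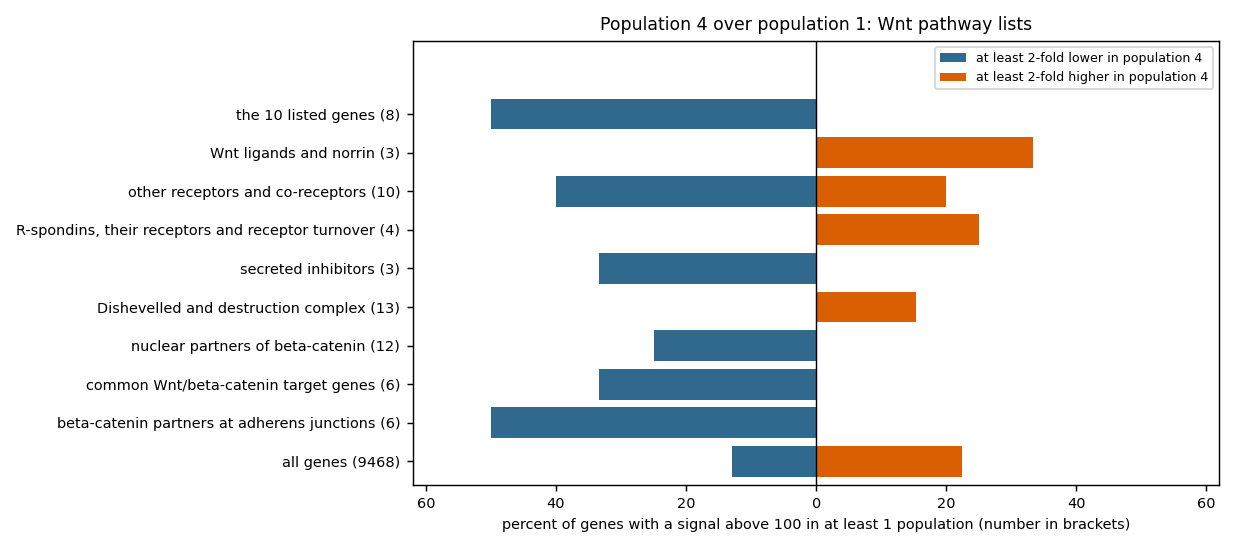
Percent of genes at least 2-fold lower (left of 0) or higher (right of 0) in population 4 over population 1, for the 10 listed genes, pathway lists with at least 3 genes above 100, and all genes; the number above 100 is in brackets and 1 array was used per population. Among the 10 other receptors and co-receptors above 100, 4 were lower and 2 higher.

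Of 20 ligand genes, only Wnt2, Wnt4 and Wnt11 exceeded 100. Wnt2 had signals of 13.5, 18.8, 13.0 and 204 in populations 1 to 4, so that population 4 was at least 2.04-fold above population 1. Wnt4 had signals of 138, 150.1, 278 and 30.5. Wls, which carries Wnts to the cell surface, had 591, 646, 778 and 658.

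Other receptors and co-receptors moved in both directions. Adgra2 and Reck, which together make endothelium of the brain responsive to Wnt7 ligands, had signals of 1167, 1353, 1505 and 162 and of 519, 373, 377 and 149 in populations 1 to 4. Population 4 was thus 7.20-fold and 3.49-fold lower than population 1. Ptk7, a pseudokinase co-receptor, was 4.48-fold lower and Fzd1 at least 3.57-fold lower. Tspan12, a tetraspanin that assists frizzled 4 in norrin signalling, had 303, 972, 1420 and 781. It was 3.21-fold higher in population 2 than in population 1, where Fzd4 was lower. Like Fzd4, it was lower in population 4 than in population 3, by 1.82-fold. Population 4 was 2.58-fold above population 1 for Tspan12 and at least 2.04-fold above it for Fzd5.

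R-spondins bind Lgr receptors and keep frizzled receptors at the surface by removing the ubiquitin ligases Znrf3 and Rnf43. Lgr4 had signals of 319, 496, 509 and 1488 in populations 1 to 4, 4.67-fold higher in population 4 than in population 1. Rspo3 had 558, 2076, 1836 and 389, which is 3.72-fold higher in population 2 than in population 1 and 4.72-fold lower in population 4 than in population 3. Wnt11 and the Lrp5 and Lrp6 inhibitor gene Sost peaked with Fzd7 in population 2. Wnt11 had 70.7, 226, 101 and 27.7 and Sost 53.1, 243, 88.4 and 3.31.

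Apcdd1, a membrane inhibitor of Wnt signalling and itself a known target, had signals of 1063, 2797, 1888 and 144 in populations 1 to 4. Population 2 was highest and 2.63-fold above population 1, and population 4 was 7.39-fold below population 1. The other 4 probe sets above 100 were also lower in population 4. Ccnd1, which encodes cyclin D1, had 1582, 2499.7, 1549.6 and 212, and was 7.47-fold lower in population 4 than in population 1. Of 15 target genes on the array, 6 exceeded 100. In population 4 over population 1, 2 of them (Apcdd1 and Ccnd1) lay at least 2-fold lower and 0 at least 2-fold higher. The shares of all genes were 12.9% and 22.4%. Myc and Znrf3 were 1.74-fold and 1.85-fold higher, and Nkd1 and Lgr5 lay below 100 in both populations. The median log2 ratio of the 6 was 0, against 0.36 for all genes. The other 9, such as Sp5, Notum, Rnf43 and Dkk1, stayed below 100 like Axin2.

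**Figure D5:**
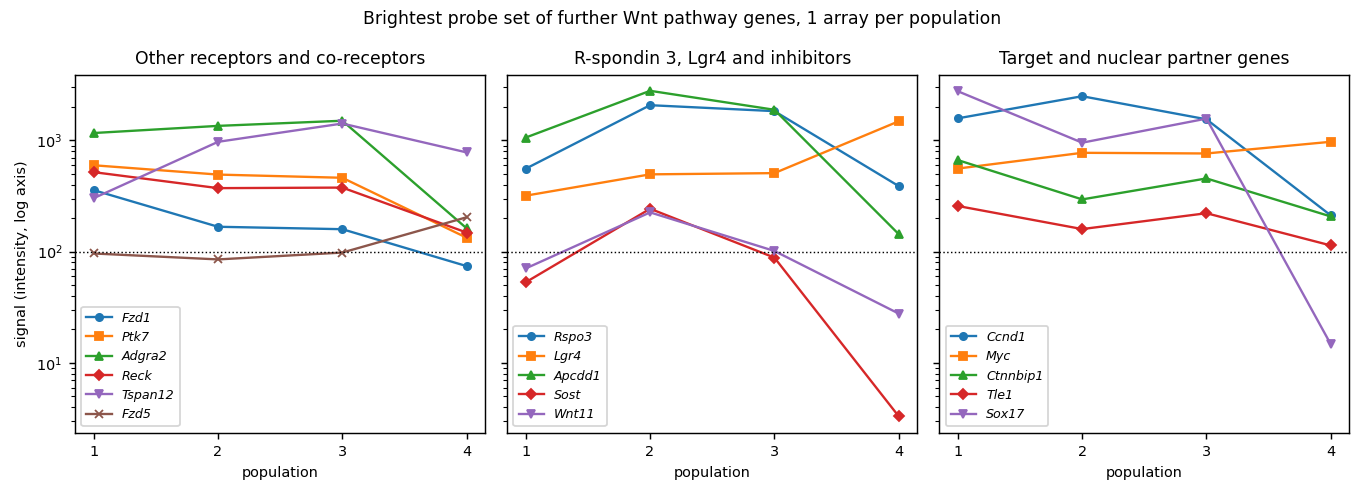
Signal (intensity, log axis) of further pathway genes by their brightest probe set over populations 1 to 4, each a single array without error bars; the dotted line marks 100. Apcdd1 and Rspo3 peak at 2797 and 2076 in population 2, and Lgr4 reaches 1488 in population 4.

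Dishevelled and the destruction complex, which sit between the receptors and β-catenin, had 13 genes above 100. In population 4 over population 1, 0 of them were at least 2-fold lower and 2 were higher, Btrc (2.37-fold), the ubiquitin ligase subunit that recognises β-catenin, and Dvl2 (2.15-fold). Of all genes 12.9% were lower and 22.4% higher, so the higher share of the list, 15.4%, lay below that of all genes. The median log2 ratio of the list was 0.03, below the 0.36 of all genes. Apc, the scaffold of the complex, had signals of 1590.0, 1409, 2288 and 1203, and Gsk3b, its kinase, 1382, 1343, 1629 and 1214.

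Among nuclear partners of β-catenin, 3 of 12 genes above 100 were at least 2-fold lower in population 4 over population 1 and 0 higher, against 12.9% and 22.4% of all genes. Ctnnbip1, which blocks the binding of β-catenin to Tcf factors, was 3.21-fold lower and the Groucho corepressor gene Tle1 2.26-fold lower. Sox17, an endothelial and endodermal factor that can bind β-catenin, was at least 27.7-fold lower, with 2770.2, 955, 1572 and 14.7. The coactivator genes Crebbp and Pygo2 had log2 ratios of 0.03 and 0.12, with signals of 1549, 1276, 1776 and 1581 for Crebbp and 883, 956, 1118 and 957 for Pygo2.

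At adherens junctions, where β-catenin holds cadherins, 3 of 6 genes above 100 were at least 2-fold lower in population 4 over population 1 and 0 higher, beside the same 12.9% and 22.4%. Cdh5 was at least 56.8-fold lower, which the sorting gate itself selects, N-cadherin (Cdh2) 13.4-fold and plakoglobin (Jup) at least 2.74-fold lower. The other probe set of Cdh5 gave a log2 ratio of -0.63, with signals below 100 raised to 100. α-catenin (Ctnna1) had 6478, 6257, 6268 and 4109, a log2 ratio of -0.66 beside the -0.76 of Ctnnb1, and p120 catenin (Ctnnd1) one of -0.76. These are values of the brightest probe sets. The other probe sets above 100 gave -0.26 and -0.97 for Ctnna1, -1.29 and -1.62 for Ctnnb1 and -0.82 for Ctnnd1.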

How the data were processed

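Values were used as deposited, as the intensity of each probe set on a linear scale. MAS5 and GCOS 1.3 are named in the processing notes of the submitters, and the scaling target is not given in the sources used here. Biotin-labelled RNA primed at the 3′ end was hybridised, so probe sets on different transcript ends of a gene can differ. The number of arrays, 1 per population, limits the precision.

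Of 45101 probe sets, 34958 had 1 gene symbol and were kept, 932 had several and 9211 none (control probe sets included). Symbols came from the platform annotation, updated through gene records of GRCm38.p6. Genes counted against a background had a signal above 100 in at least 1 population (9468 of 18194). A gene with both signals at or below 100 then has a log2 ratio of 0. Signals below 1 were set to 1 before standard deviations and correlations. Python 3.11.15, pandas 2.3.3, numpy 2.4.6 and matplotlib 3.10.9 were used, and the ratio calls were tested on simulated data.

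The 10 genes and the pathway lists were chosen with earlier results of these data known. Genes were named by rule, as all 10 members, the 3 nearest profiles of each member with a signal of at least 400 and a 4-fold range, and up to 4 genes per list and direction at least 2-fold apart between populations 4 and 1. Further list genes given with values were chosen after these were seen. Kremen2, T and Tcf7 were not analysed here.

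Alternatives tried were arrays scaled on hybridisation controls, centred on their median or quantile normalised, a gene's mean over its probe sets, exclusion of probe sets whose names end in _s_at or _x_at, floors of 50 and 200, a 4-fold limit, no signal minimum and signals raised to 100 before correlation.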

Additional observations from a re-analysis of the deposited data

How the results depend on the processing

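No paired analysis was possible because each population has 1 array in the data used here, and none could be left out. Of 189 member ratios recomputed under the alternatives, 162 kept their side of 2-fold and stayed within 1.5 times, 27 did not, and 0 of those past 2-fold changed sign. Some of the 162 could not change. A floor of 50 leaves a ratio as it was where both signals exceed 100, and a floor of 200 where both exceed 200. Leaving out _s_at and _x_at probe sets changed the probe set read for Tcf7l2 only. The count is thus no measure of stability. Tcf7l1 stayed at least 4-fold below population 1 in population 4 in all settings run (log2 ratio -4.27 to -2.27), while Lef1 ranged from -2.55 to -0.04, Fzd4 from -2.55 to -0.65, Tcf7l2 from -3.12 to -0.81 and Ctnnb1 from -1.22 to -0.43. With the mean over probe sets, which averages in probe sets near background, 2 members in place of 4 were at least 2-fold lower in population 4 over population 1 and 2 in place of 3 in population 4 over population 3 (Tcf7l1 and Ctnnb1 in both). That setting holds 6 of the 8 members, as the averaged signals of Fzd6 and Fzd7 did not exceed 100, so the calls of Fzd7 could not be evaluated. In it 0 in place of 1 were higher and 0 in place of 1 lower in population 2 than in population 1, and 0 in place of 1 were lower in population 3 than in population 2. Lower members in population 2 than in population 1 numbered 2 with a floor of 50, 0 with a floor of 200 and 2 on the hybridisation controls. Lower members in population 3 than in population 2 numbered 2 after centring on the array median and 2 after quantile normalisation, with Tcf7l1 added, and 0 on the hybridisation controls. Centring also made 5 in place of 4 lower in population 4 over population 1, with Ctnnb1 added. With a floor of 200, 2 were lower in population 4 than in population 3. At 4-fold, 0 were higher or lower in population 2 than in population 1, 0 lower in population 3 than in population 2, and 2 lower in population 4 than in population 3. On the hybridisation controls 3 members, in place of 6, correlated with Runx1 below -0.6. The median log2 ratio of all genes between populations 4 and 1 was 0.10 after centring, 0.12 after quantile normalisation and 0.65 on the hybridisation controls, with 14.4%, 15.1% and 34.6% of genes at least 2-fold higher and 16.0%, 15.5% and 10.2% at least 2-fold lower. Signal over background limits Lrp5, Axin2, Fzd6 and, in populations 3 and 4, Lef1.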
